A study of Mus musculus with 12 samples.

Results

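The 10 genes Bnip3, Bnip3l, Mgarp, Fam162a, Higd1a, Ak4, Vegfa, Ndrg1, Ankrd37 and Mxi1 are targets of the hypoxia-inducible factors (HIF) that act in mitochondria, blood vessel growth and stress rather than in glycolysis. They were taken by symbol, 10 of the 55450 genes in the deposited tables, and all 10 were among the 13636 genes left by a filter on low counts. The RNA was that of Pmel-1 CD8 T cells, mouse cells that carry a transgenic receptor for the melanoma antigen gp100. The cells were Ucp2 wildtype, were stimulated in culture and were expanded for 4 days with IL-2 at 10 ng/ml. The 12 libraries formed 4 groups of 3: vehicle (culture media), genipin, genipin+NAC and NAC. Genipin, a compound from gardenia fruit, is used to block Ucp2, a carrier of the inner mitochondrial membrane, and NAC (N-acetylcysteine) is a thiol antioxidant.

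Several features limit these groups as a model. The labels allow peptide or antibodies to CD3 and CD28 for stimulation without assigning either to a library. They give no doses of genipin or NAC, no oxygen level, and no statement on the source of the replicates, which may be mice or dishes. A p-value here reflects the spread among the 12 libraries alone, and that spread may be technical. All groups shared the receptor transgene and IL-2, and every library is labelled Ucp2 wildtype. In bulk RNA, fewer cells of a type and less RNA per cell cannot be told apart.

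HIF is a pair of proteins, an oxygen-regulated alpha subunit (Hif1a or Epas1) and the stable subunit Arnt. With oxygen present, prolyl hydroxylases encoded by Egln1, Egln2 and Egln3 mark the alpha subunit for destruction through the Vhl ubiquitin ligase, so HIF is controlled largely at the protein level, which RNA does not show. Activated T cells also accumulate HIF-1 alpha without hypoxia, and stable HIF binds short hypoxia response elements in its targets, among them Egln3 and Egln1 themselves.

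The libraries held 20838894 to 31098648 expected counts each, and all 10 markers of CD8 T cells were found, summing to 3253 to 4283 TPM (transcript abundance scaled for length and depth). Ucp2 RNA was present in every group, at 736 to 766 CPM (counts scaled to the normalized library total) with vehicle, 618 to 632 with genipin, 505 to 563 with genipin+NAC and 477 to 491 with NAC. One library stood apart from its group, genipin+NAC replicate 1, whose count differences from the others gave a chi-square per degree of freedom of 6.77 and 7.75, against 2.08 to 2.89 in the other 10 pairs within groups. Without it all 10 genes kept their direction and call in the 4 comparisons that involve genipin+NAC, and no log2 fold change of theirs moved by more than 0.0701. The summed level of 10 macrophage and monocyte markers was lowest with genipin and highest with genipin+NAC, as for the 10 genes, at 38.4 to 43.4 TPM with vehicle, 16.6 to 17.5 with genipin, 84.3 to 96.5 with genipin+NAC and 71.3 to 73.3 with NAC. Most of that sum came from Cd68 and Itgam, while C1qb and Fcgr1 were at 0 in every library and Csf1r and Adgre1 reached at most 1 and 3 counts. The third tested marker of that list, Cd14, ran the other way, with 0.97 ± 0.19 for genipin and -1.47 ± 0.25 for NAC against vehicle. Dendritic cell markers summed to 135 to 146 TPM with vehicle, 39.8 to 47.2 with genipin, 56.2 to 64.3 with genipin+NAC and 119 to 124 with NAC. Most of that sum was Batf3, at a mean of 136 TPM with vehicle and 35.8 with genipin. Flt3 and Zbtb46 also fell with genipin (-2.66 ± 0.395 and -1.67 ± 0.24), while Itgax rose (0.78 ± 0.09). Siglech was at 0 in every library, and Clec9a and Xcr1 reached at most 1 and 3 counts. Natural killer cell markers summed highest with genipin, at 325 to 331, 462 to 474, 249 to 265 and 219 to 229 TPM in the same order of groups. Most of that sum was Klrk1 and Fcer1g, at means of 218 and 84.2 TPM with vehicle and 203 and 217 with genipin. Of the 6 markers, genipin raised 4 against vehicle, where 29.9% of all genes were called higher. Klrk1 fell (-0.21 ± 0.03) and Klre1 was not called (-0.01 ± 0.23). B cell markers were highest with NAC, at 32.9 to 33.4, 49.6 to 53.7, 127 to 129 and 171 to 182 TPM. Markers of CD4 T cells, of fibroblasts and endothelium, of erythroid cells and of neutrophils summed to at most 43.1, 31.0, 6.51 and 1.31 TPM in any library. The part of such cells in the results was not tested. The sums are in TPM, which are scaled to each library's total without the normalization factors used for CPM.

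The core of a hypoxia response element is ACGTG or GCGTG, and it was searched on both strands of the 250 bases before each transcript start in RefSeq (GRCm38.p6, the mm10 assembly). Promoter windows were found for 8 of the 10 genes, not for Bnip3l and Ndrg1. Each of those 8 genes had at least 1 core in at least 1 of its windows, against 41.5% of the 27025 genes with a window. By window, 12 of 14 (85.7%) held a core, against 38.6% of all 32851 windows, and ACGTG alone was in 57.1% against 16.6%. Both cores contain CG, the 14 windows were 55.2 to 77.2% G or C, and all windows were not matched to them in base composition. The part of composition in these shares was not tested. For Vegfa the window at chr17:46032378-46032627 held no core. Its cores lay in the window at chr17:46025164-46025413, inside the gene and within annotated exons. The Higd1a window had no stretch outside annotated exons. More windows per gene favour a match by gene, and the 8 genes had 14 windows, against 32851 for 27025 genes. The 14 windows partly overlap each other, and a match describes letters only, not a bound site. The number of cores per window ranged from 0, in 1 window each of Vegfa and Mxi1, to 6 in Fam162a. A set of 4 windows, all with at least 1 core, are shown by their stretch outside annotated exons. Each is given 5′ to 3′ on the minus strand with the cores on either strand in capitals. The stretches lie at chr7:138909520-138909756 (Bnip3), chr16:36071595-36071684 (Fam162a), chr8:45999868-46000100 (Ankrd37) and chr3:51396739-51396797 (Mgarp), all upstream of a transcript start and in no exon.
Bnip3: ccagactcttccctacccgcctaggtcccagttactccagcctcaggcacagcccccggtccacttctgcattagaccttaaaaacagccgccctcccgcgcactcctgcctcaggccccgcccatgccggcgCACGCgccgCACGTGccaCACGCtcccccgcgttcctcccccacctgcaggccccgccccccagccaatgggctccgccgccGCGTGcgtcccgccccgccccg
Fam162a: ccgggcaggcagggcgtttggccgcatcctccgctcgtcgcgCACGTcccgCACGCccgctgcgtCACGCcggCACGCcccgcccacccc
Ankrd37: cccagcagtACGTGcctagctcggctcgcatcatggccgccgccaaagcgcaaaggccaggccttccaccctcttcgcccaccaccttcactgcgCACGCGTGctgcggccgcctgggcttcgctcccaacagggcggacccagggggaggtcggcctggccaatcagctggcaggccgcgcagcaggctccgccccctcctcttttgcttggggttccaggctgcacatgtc
Mgarp: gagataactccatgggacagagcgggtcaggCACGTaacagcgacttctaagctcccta
In Bnip3 the ACGTG cores of the 2 strands overlap in the palindrome CACGTG, which starts 108 bases before the transcript start, and 3 GCGTG cores lie around it at 117, 99 and 35 bases. Fam162a had 4 cores between 81 and 50 bases before the start, and 2 more at 213 and 19 bases lie outside the stretch shown. Ankrd37 had its outermost ACGTG at 241 bases before the start, and a second ACGTG at 6 bases lies outside the stretch shown. Mgarp had 1 core, 219 bases before the start.

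All 10 genes fell with genipin and all 10 were above every other group with genipin+NAC. Against vehicle, genipin lowered 10 of 10 at an adjusted p under 0.05, where 31.0% of all genes tested were called lower, and the median log2 fold change of the 10 was -1.52 against -0.00788 over all genes. A fall of 2-fold or more was found for 6 of them (Bnip3, Mgarp, Fam162a, Ak4, Vegfa and Ankrd37), with 6.69% of all genes called at that size. Genipin+NAC raised 10 of 10 against vehicle (28.5% of all genes called higher), with a median of 1.04 against 0.00484. In every one of the 10 the 3 genipin libraries were the lowest of the 12 and the 3 genipin+NAC libraries the highest, an arrangement that 413 of 13636 genes (3.03%) had. NAC alone gave a mixed picture: 1 gene was higher than with vehicle (29.6% of all genes called higher), 5 were lower (30.0% called lower) and 4 were not called, so 6 of 10 were called where 59.7% of all genes were. The libraries of the groups compared did not overlap for 10 of 10 genes with genipin against vehicle (66.7% of all genes), 10 of 10 with genipin+NAC (60.7%) and 7 of 10 with NAC (65.9%).

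**Figure D1:**
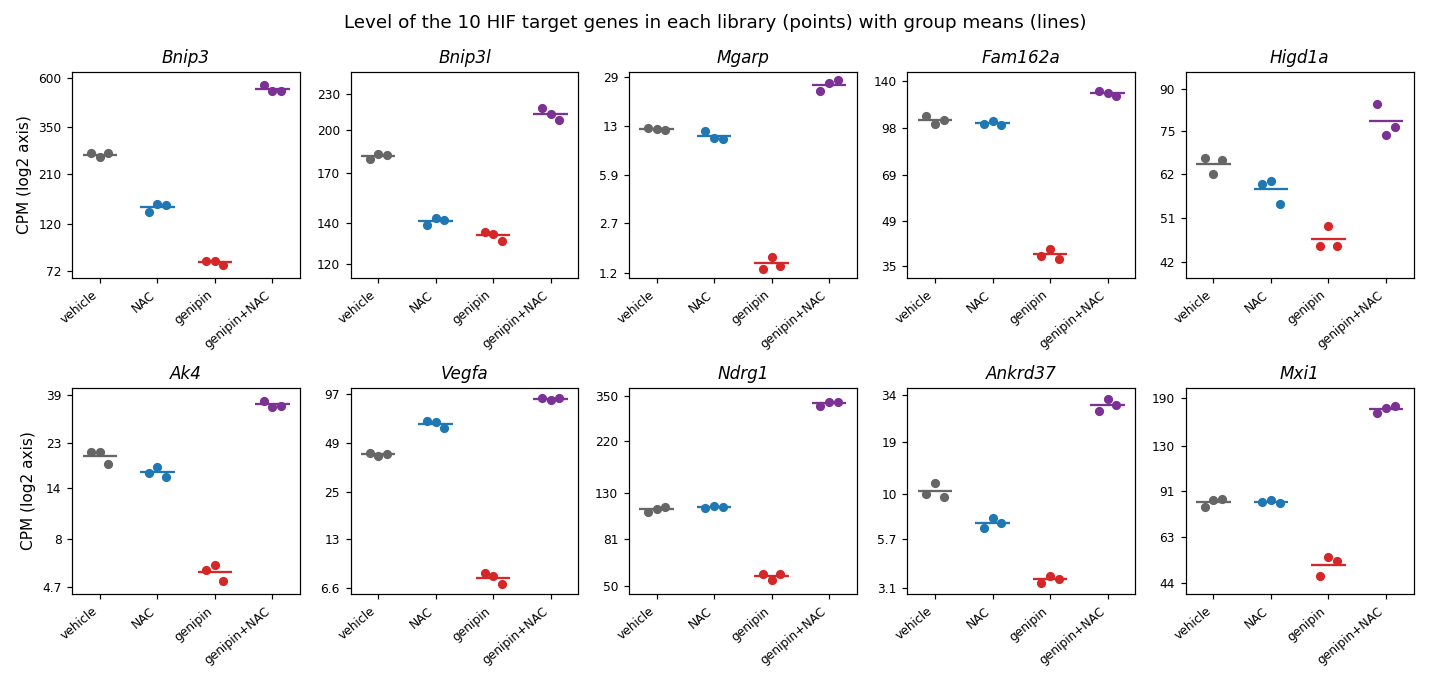
CPM (counts scaled to the library totals, log2 axis) of the 10 genes in each library (points), with the group mean (line). In every panel the genipin libraries are the lowest and the genipin+NAC libraries the highest, with vehicle and NAC between them.

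The genes differ in abundance, which is compared here per length, in TPM with vehicle (mean ± SD, n = 3). Fam162a was the most abundant at 291 ± 3.51 TPM, then Bnip3 at 192 ± 6.10, Bnip3l at 112 ± 6.58 and Higd1a at 73.1 ± 6.58. Ndrg1 (44.7 ± 0.623) and Mxi1 (38.6 ± 1.29) were intermediate. The lowest were Vegfa at 17.6 ± 0.0961, Ankrd37 at 16.1 ± 1.45, Mgarp at 13.2 ± 0.240 and Ak4 at 6.30 ± 1.35 TPM. All values by library below are CPM, which serve to compare groups within a gene.

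Bnip3 encodes a receptor of the outer mitochondrial membrane that recruits the autophagy machinery to mitochondria. Its level was 263, 252 and 262 CPM with vehicle, 80.5, 80.1 and 76.8 with genipin, 560, 522 and 519 with genipin+NAC, and 137, 150 and 148 with NAC. The 4 groups did not overlap, and each compound alone left Bnip3 below vehicle while both together left it above. By the quasi-likelihood F test of edgeR with p-values adjusted after Benjamini and Hochberg, Bnip3 fell by 1.71 ± 0.04 (log2, SE) with genipin (adjusted p = 7.15e-19) and by 0.84 ± 0.04 with NAC (adjusted p = 6.33e-14). It rose by 1.04 ± 0.04 with genipin+NAC (adjusted p = 1.02e-15). Bnip3 had the deepest fall with NAC among the 10 genes.

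Bnip3l (also called Nix) encodes the close relative of Bnip3 and is known for clearing mitochondria from maturing red blood cells. It had 179, 182 and 182 CPM with vehicle, 136, 134 and 131 with genipin, 217, 212 and 208 with genipin+NAC, and 139, 143 and 142 with NAC. The order of groups was that of Bnip3 but over a far narrower range, 1.59-fold from the lowest to the highest group mean against 6.74-fold. The genipin difference was -0.44 ± 0.03 and that of genipin+NAC was 0.23 ± 0.03, both called. NAC and genipin alone lay close together, a log2 difference of 0.08 ± 0.03 that passed at adjusted p = 0.0222 by the quasi-likelihood F test of edgeR, Benjamini-Hochberg adjusted, and that lost the call without genipin replicate 3, NAC replicate 2 or NAC replicate 3 and without the filter on low counts.

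For Bnip3l the scale decided the direction of the NAC comparison. The deposited tables give a mean transcript length per gene, weighted by the estimated abundance of each isoform, and for Bnip3l it was 1850 to 2063 bases with vehicle, 2174 to 2421 with genipin, 1799 to 1825 with genipin+NAC and 1441 to 1675 with NAC. No pair of the 4 groups overlapped in this length, which was so for 41 of the 13636 genes tested (0.301%) and for none of the other 9 genes here. The annotation holds 2 coding Bnip3l transcripts of 3238 and 3259 bases and 5 transcripts without a coding sequence of 354 to 789 bases, so a shorter mean stands for a larger estimated share of the short ones. In CPM, Bnip3l was lower with NAC than with vehicle (-0.36 ± 0.03, adjusted p = 1.16e-09 by the quasi-likelihood F test of edgeR, Benjamini-Hochberg adjusted). In TPM, which lack the normalization factors used for CPM, it averaged 130 ± 13.4 with NAC and 112 ± 6.58 with vehicle (SD, n = 3). With each library's lengths as offsets in the same test, and such factors kept, the difference was 0.02 ± 0.07 (adjusted p = 0.828, Benjamini-Hochberg). With those offsets the falls and rises of the other comparisons kept their direction, at -0.69 ± 0.07 for genipin and 0.36 ± 0.07 for genipin+NAC against vehicle. The gap between NAC and genipin widened from 0.08 to 0.71 ± 0.07, with a mean of 75.7 ± 5.60 TPM for genipin, and that between genipin+NAC and genipin from 0.67 to 1.06 ± 0.07. The processed pseudogene Bnip3l-ps was assigned 11.9 to 34.2 counts per library and Bnip3l 3013 to 6369.

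**Figure D2:**
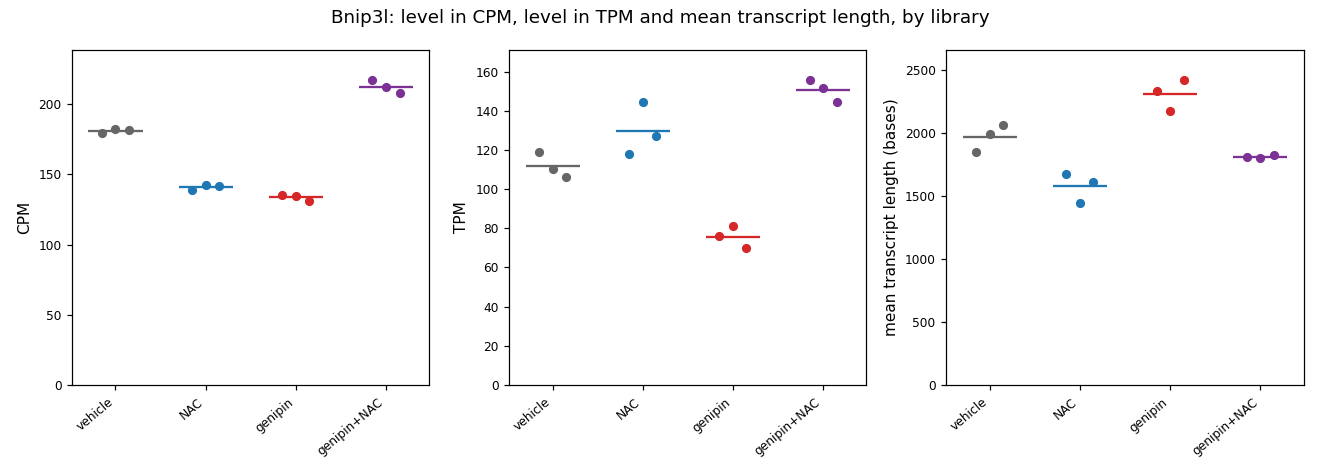
Bnip3l in each library (points) with group means (lines): CPM, deposited TPM and deposited mean transcript length in bases. NAC lies below vehicle in CPM and in length, at 1441 to 1675 bases against 1850 to 2063, while its mean TPM lies above that of vehicle. With length offsets and normalization factors the log2 difference of NAC from vehicle was 0.02 ± 0.07, not called.

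Mgarp encodes a mitochondrial protein linked to the transport of mitochondria under low oxygen, and had the widest range of the 10, 18.3-fold between group means. Its level was 12.6, 12.3 and 12.2 CPM with vehicle, 1.28, 1.56 and 1.35 with genipin, 22.9, 26.3 and 27.3 with genipin+NAC, and 12.1, 10.7 and 10.6 with NAC. The genipin libraries held only 33 to 37 Mgarp counts each, against 263 or more elsewhere. Genipin lowered it by a log2 fold change of -3.15 ± 0.12, or 8.90-fold, while NAC alone gave -0.16 ± 0.08, which was not called (adjusted p = 0.109, edgeR's quasi-likelihood F test, Benjamini-Hochberg) and passed at 0.0489 without NAC replicate 1. Genipin+NAC stood 1.04 ± 0.08 above vehicle.

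Fam162a encodes a small mitochondrial protein tied to cell death in hypoxia. It had 107, 101 and 105 CPM with vehicle, 37.8, 39.9 and 37.0 with genipin, 130, 128 and 125 with genipin+NAC, and 101, 104 and 100 with NAC. Genipin lowered it 2.74-fold and genipin+NAC raised it only 1.22-fold over vehicle, so the response of Fam162a lay mostly in its fall. Vehicle and NAC overlapped, at a log2 difference of -0.04 ± 0.04 (adjusted p = 0.378, edgeR's quasi-likelihood F test, Benjamini-Hochberg). Fam162a shares 168 bases with Wdr5b on the other strand, which had 99 to 200 counts against 894 to 3830 for Fam162a, and the strand setting of the counting is not given in the sources used here.

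Higd1a encodes a small inner-membrane protein that assists respiratory complexes. It had 66.5, 61.9 and 66.0 CPM with vehicle, 45.1, 49.2 and 45.1 with genipin, 84.5, 73.4 and 76.3 with genipin+NAC, and 59.2, 60.1 and 54.3 with NAC. The groups did not overlap, but the steps were small, at -0.48 ± 0.05 for genipin and 0.27 ± 0.05 for genipin+NAC. The NAC difference of -0.16 ± 0.05 passed at adjusted p = 0.012 by the quasi-likelihood F test of edgeR, Benjamini-Hochberg adjusted, and not without vehicle replicate 1 (0.0505), vehicle replicate 3 (0.0520) or NAC replicate 3 (0.0886).

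Ak4 encodes an adenylate kinase of the mitochondrial matrix. It had 20.8, 20.7 and 18.2 CPM with vehicle, 5.65, 5.98 and 4.996 with genipin, 36.6, 34.3 and 34.6 with genipin+NAC, and 16.5, 17.7 and 15.8 with NAC. No groups overlapped, and genipin lay 3.60-fold below vehicle and genipin+NAC 1.77-fold above it. Of the 7 other nucleotide kinases of the list that were tested, Ak1, Ak3, Ak6 and Cmpk2 rose with genipin and Ak5 fell. Of all genes, 29.9% were called higher with genipin and 31.0% lower. Ak3, the other adenylate kinase of the matrix, moved by 0.13 ± 0.04 with genipin and 0.33 ± 0.04 with genipin+NAC.

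Vegfa encodes the main growth factor for blood vessels and is the 1 secreted product among the 10. It had 42.5, 41.2 and 42.0 CPM with vehicle, 8.16, 7.81 and 7.04 with genipin, 90.7, 88.8 and 90.9 with genipin+NAC, and 66.1, 65.5 and 60.5 with NAC. Vegfa was the only one of the 10 that was called higher with NAC than with vehicle, by 0.61 ± 0.05 (adjusted p = 2.55e-10, edgeR's quasi-likelihood F test, Benjamini-Hochberg). Genipin lowered it by a log2 fold change of -2.45 ± 0.06, or 5.47-fold, and genipin+NAC exceeded NAC alone by 0.50 ± 0.04. Its relative Vegfb fell with genipin (-0.92 ± 0.08) but stood at -0.16 ± 0.07 with genipin+NAC, not called. The co-receptor Nrp1 rose with genipin (2.32 ± 0.12), from 0.847 to 4.65 TPM on average.

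Ndrg1 encodes a cytoplasmic stress protein induced by hypoxia and by iron loss. It had 106, 110 and 112 CPM with vehicle, 56.6, 53.0 and 56.6 with genipin, 315, 328 and 329 with genipin+NAC, and 111, 113 and 112 with NAC. Vehicle and NAC overlapped (0.03 ± 0.03, adjusted p = 0.396, edgeR's quasi-likelihood F test, Benjamini-Hochberg), while genipin+NAC rose by 1.56 ± 0.03, the largest rise over vehicle among the 10 with Ankrd37 (1.54 ± 0.08) within its error. All 4 genes of the NDRG family, Ndrg1 among them, fell with genipin, where 31.0% of all genes were called lower. Ndrg2 fell by 2.21 ± 0.07. Ndrg2 and Ndrg4 were lower with genipin+NAC than with NAC (-0.27 ± 0.06 and -0.47 ± 0.12), where Ndrg1 was higher by 1.53 ± 0.03.

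Ankrd37 encodes an ankyrin-repeat protein known chiefly as a HIF target. It had 9.93, 11.5 and 9.68 CPM with vehicle, 3.33, 3.62 and 3.46 with genipin, 28.0, 32.3 and 30.1 with genipin+NAC, and 6.58, 7.40 and 7.01 with NAC. The groups did not overlap and repeated the order of Bnip3, with a fall of 0.56 ± 0.09 for NAC and a rise of 1.54 ± 0.08 for genipin+NAC. Against NAC alone, genipin+NAC raised Ankrd37 by 2.10 ± 0.08, the most among the 10. The genipin libraries held 81 to 95 Ankrd37 counts, and the gene shares 57 bases with Ufsp2 on the other strand, which had 583 to 1034 counts per library.

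Mxi1 encodes a transcription repressor that competes with Myc for its partner Max. It had 80.0, 84.6 and 85.3 CPM with vehicle, 46.4, 53.9 and 52.2 with genipin, 169, 176 and 179 with genipin+NAC, and 83.7, 84.8 and 82.7 with NAC. Vehicle and NAC overlapped almost wholly (0.01 ± 0.04, adjusted p = 0.906, edgeR's quasi-likelihood F test, Benjamini-Hochberg). Genipin lowered Mxi1 1.64-fold and genipin+NAC raised it 2.09-fold. Its relative Mxd1 shared the extremes of Mxi1, genipin lowest and genipin+NAC highest, with differences from vehicle of -0.30 ± 0.06 and 0.56 ± 0.05. Mxd3 rose with genipin (1.01 ± 0.08), and Myc differed by 0.07 ± 0.04 with genipin, not called, and -0.32 ± 0.04 with genipin+NAC.

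**Figure D3:**
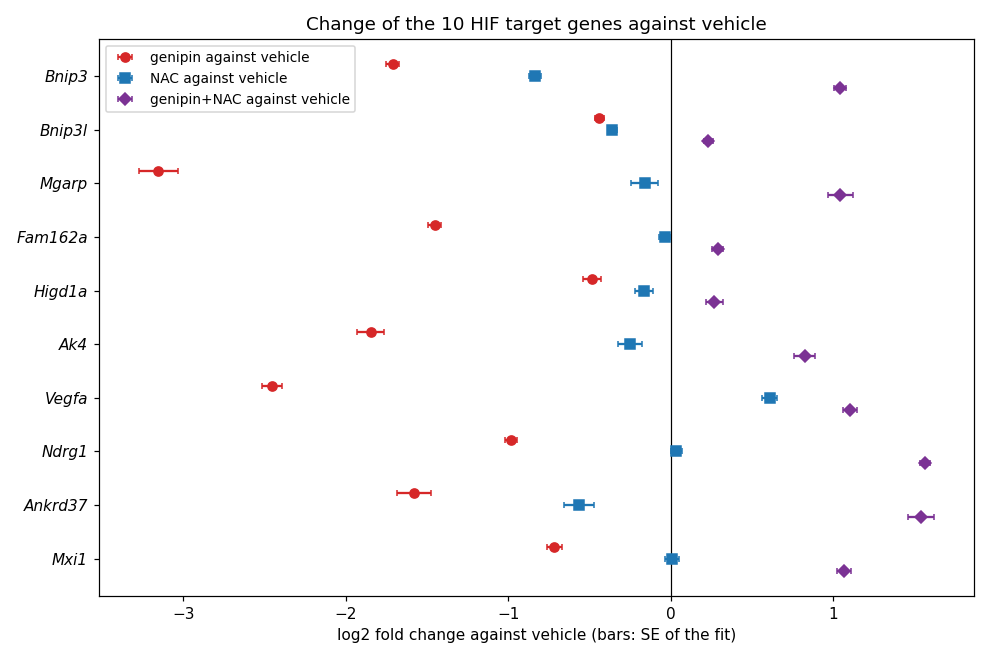
Log2 fold change against vehicle of the 10 genes with genipin, NAC and genipin+NAC (bars: SE of the fit). All genipin points lie below 0 and all genipin+NAC points above it, while the NAC points run from -0.84 (Bnip3) to 0.61 (Vegfa); the 3 comparisons share the vehicle libraries.

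Whether genipin acted alike with and without NAC was tested as an interaction, the genipin difference with NAC minus that without it. It was called for 10 of 10 genes, where 51.4% of all genes were called, and was positive in each (27.4% of all genes called higher), with a median of 2.72 log2 units against 0.032 over all genes. Genipin lowered every one of the 10 without NAC and, in cells that also received NAC, left every one higher than NAC alone (10 of 10, where 26.6% of all genes were called higher). The interaction was largest for Mgarp at 4.36 ± 0.14, Ankrd37 at 3.68 ± 0.13 and Bnip3 at 3.59 ± 0.05, and smallest for Higd1a at 0.91 ± 0.08 and Bnip3l at 1.03 ± 0.04. The genes reached it in different ways. For Vegfa (-2.45 without NAC, 0.50 with it) and Fam162a (-1.45 and 0.33) the fall was the larger side, and for Ndrg1 (-0.98 and 1.53) and Mxi1 (-0.72 and 1.06) the rise was.

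**Figure D4:**
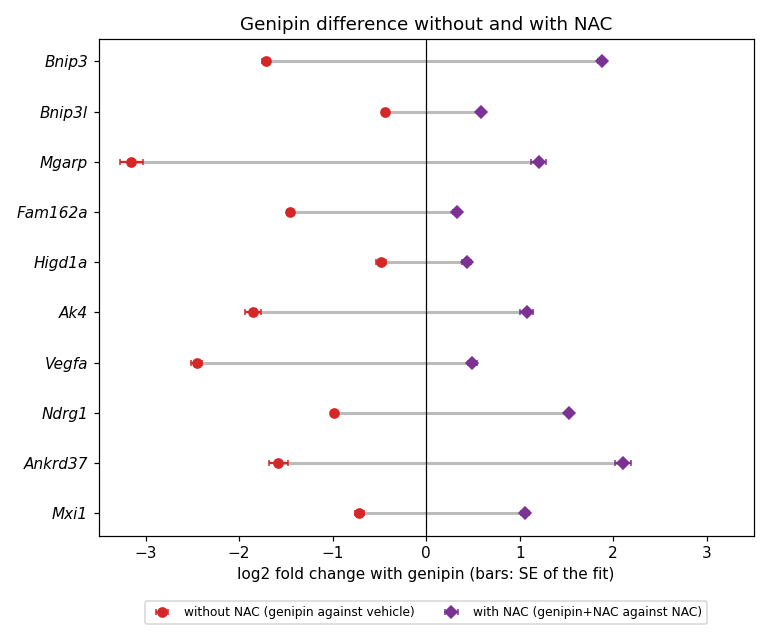
Log2 fold change with genipin in the absence of NAC (circles, genipin against vehicle) and in its presence (diamonds, genipin+NAC against NAC), bars SE of the fit. Every circle lies below 0 and every diamond above it, and the grey line between them is the interaction, longest for Mgarp at 4.36.

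The order of the 4 groups followed 2 patterns. In Bnip3, Bnip3l, Mgarp, Fam162a, Higd1a, Ak4 and Ankrd37 the CPM ran from genipin+NAC through vehicle and NAC to genipin, and in Vegfa, Ndrg1 and Mxi1 NAC stood above vehicle. Vehicle and NAC were neighbours in every order, and they were not called different for Mgarp, Fam162a, Ndrg1 and Mxi1. This middle of the order depended on the scale. By deposited TPM the NAC mean was above vehicle for 7 of the 10 genes, by CPM for 3, while genipin lay below vehicle for all 10 and genipin+NAC above vehicle and NAC for all 10 on both scales. The deposited TPM lack the normalization factors between libraries that CPM have. In counts without those factors, the median log2 fold change of all genes for NAC against vehicle was 0.114, against -0.00526 with them. A higher NAC mean in TPM is therefore not particular to these genes. NAC was called higher than genipin for 10 of 10 genes (36.6% of all genes), from 0.08 in Bnip3l to 3.06 in Vegfa, and genipin+NAC was called higher than genipin for 10 of 10 (35.0%), from 0.67 in Bnip3l to 4.20 in Mgarp. The 2 Bnip3l values were 0.71 and 1.06 with length offsets.

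The HIF subunits had another order of groups than their 10 targets. Hif1a had 463 to 494 CPM with vehicle, 229 to 236 with genipin, 475 to 516 with genipin+NAC and 688 to 720 with NAC. It was highest with NAC alone, and genipin+NAC, the group where the 10 targets were highest, was not called different from vehicle (0.04 ± 0.03, adjusted p = 0.321 by the quasi-likelihood F test of edgeR, Benjamini-Hochberg adjusted). Epas1, the alpha subunit of HIF-2, ran the other way, at 15.5 to 17.9 CPM with vehicle, 30.1 to 35.7 with genipin, 10.5 to 12.7 with genipin+NAC and 4.84 to 6.36 with NAC. Arnt was called higher than with vehicle in each group, by 0.11 ± 0.05 with genipin, 0.36 ± 0.04 with genipin+NAC and 0.32 ± 0.04 with NAC.

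Of the prolyl hydroxylases, Egln3 had the pattern of the 10 genes. It had 140 to 147 CPM with vehicle, 43.8 to 48.6 with genipin, 447 to 461 with genipin+NAC and 163 to 167 with NAC. Egln1 was highest with genipin+NAC too, at 233 to 238 CPM, but genipin (83.8 to 91.4) and NAC (83.1 to 87.7) overlapped below vehicle (117 in each library). Egln2 differed from vehicle by 0.15 ± 0.06 with genipin and 0.03 ± 0.06 with genipin+NAC, the latter not called. Over the 17 genes of oxygen sensing and HIF subunits, genipin raised 7 and lowered 7, with a median of -0.0204, where 29.9% of all genes were called higher and 31.0% lower.

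**Figure D5:**
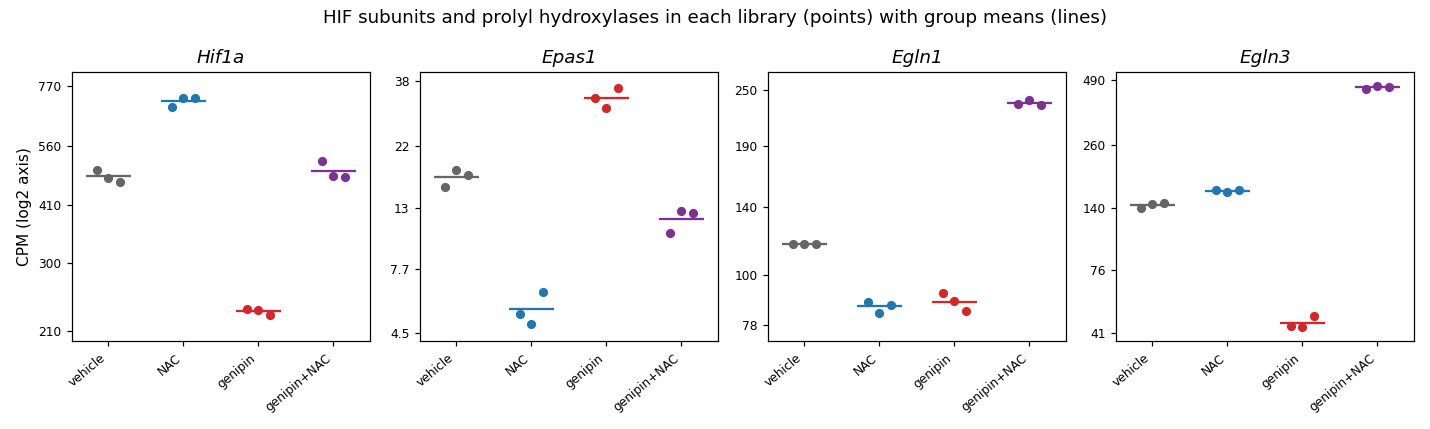
CPM (log2 axis) of Hif1a, Epas1, Egln1 and Egln3 in each library (points) with group means (lines). Egln3 is lowest with genipin and highest with genipin+NAC, Hif1a is highest with NAC at 688 to 720 CPM, and Epas1 is highest with genipin.

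Other HIF targets were read against the 10 by the same counts, with shared libraries throughout. Of 30 tested targets outside glycolysis, genipin lowered 20 and raised 5 (median -0.549), where 31.0% of all genes were called lower and 29.9% higher. Against vehicle, genipin+NAC raised 22 of the 30 and lowered 3 (median 0.445), where 28.5% of all genes were called higher and 3935 of 13636 lower. Genipin was lowest and genipin+NAC highest in all libraries for 8 of these 30 (26.7%), against 3.03% of all genes. Among the 8 were P4ha1, a collagen prolyl hydroxylase, Ero1l, an oxidase of protein folding, and Hilpda, a lipid droplet protein. The exceptions included Tfrc, the transferrin receptor, which rose with genipin (0.64 ± 0.03) and fell with genipin+NAC (-0.63 ± 0.03), and Zfp395 and Narf, which rose in both. Of 22 HIF targets of glycolysis, 22 fell with genipin (median -0.724) and 20 rose with genipin+NAC (median 0.453), against 31.0% and 28.5% of all genes. The arrangement of the 10 genes was found for 13 of the 22 (59.1%), against 3.03% of all genes. No test was made of the difference between these lists and the 10 genes.

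Mitophagy genes other than Bnip3 and Bnip3l were called in both directions. Of 22 tested, genipin raised 10 and lowered 9 (median -0.0245), against 29.9% and 31.0% of all genes. Nbr1 and Usp30, 2 of the 22 (9.09%), were lowest with genipin and highest with genipin+NAC in all libraries, against 3.03% of all genes. Sqstm1, which encodes the autophagy adaptor p62, rose with genipin (0.68 ± 0.03), while the receptor Fundc1 fell slightly (-0.25 ± 0.06). Of the paralogs of Bnip3, Bnip2 rose with genipin (0.23 ± 0.05) and Bnip1 fell (-0.20 ± 0.06). Higd2a, the paralog of Higd1a, fell with genipin by 0.19 ± 0.06 and was not called with genipin+NAC (0.03 ± 0.06).

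Across the 12 libraries the 10 genes correlated with each other at Pearson's r between 0.679 (Bnip3l and Vegfa) and 0.996 (Ndrg1 and Mxi1), with a median of 0.931 over 45 pairs. These are descriptions over 12 libraries that fall into 4 groups, and a correlation here mostly restates the group means. Among 9421 other genes with a mean of at least 5 CPM, the closest to the average of the 10 were Arrb1 (r = 0.9988), Pgam1 (0.9971), Hilpda (0.9951), Traf1 (0.994) and Basp1 (0.9936). The closest to Bnip3 were Unc13a (0.9908), Pfdn5 (0.9906), Crbn (0.9863), Hilpda (0.983) and Mirt1 (0.9817). Vegfa had other neighbours, among them Pde4b (0.9984), Tnfrsf9 (0.998), Itm2a (0.9979) and Ctla4 (0.9965).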

How the data were processed

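Total RNA of 12 libraries was depleted of ribosomal RNA, prepared with a strand-marking kit and read as pairs of 150 bases, per the labels' protocols. The submitters' processing notes name bcl2fastq, cutadapt 1.18, STAR 2.7.0f, RSEM 1.3.1 and mm10, with no role for each. The authors deposited 1 gene table per library, which per the file headers holds expected counts, TPM, FPKM, transcript lengths and effective lengths. The deposited FPKM were not used. All 55450 gene IDs matched GENCODE mouse release M21, which gave coordinates on mm10, and promoter windows came from RefSeq.

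Expected counts, as deposited, were rounded and filtered with filterByExpr of edgeR 4.0.16 (R 4.3.3). TMM factors ran from 0.961 to 1.05. All 12 libraries entered 1 fit with a coefficient for each group, and 7 contrasts were tested by quasi-likelihood F over 13636 genes (8 residual and 12.6 prior degrees of freedom). The common biological coefficient of variation was 0.0393. Benjamini-Hochberg adjusted p under 0.05 called a gene, and SE is the size of the log2 fold change over the root of F. CPM came from the expected counts and scaled totals. The deposited TPM served only for levels named with that unit.

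The genes, lists and naming rule were chosen with earlier results of these data known. The rule names all 10 genes, Ucp2, their paralogs and oxygen-sensing genes, up to 4 genes of smallest p per other list and contrast, defining cell markers, and the 5 non-members most correlated with Bnip3, Vegfa and the mean of the 10; Usp30, Tfrc and Fundc1 were named after their values were seen. The text does not report every gene the rule names. Each library's deviations from its group mean (log2 CPM) were correlated between libraries with the same replicate number. These correlations ran from -0.134 to 0.111 over 18 pairs, so no block was used. Alternatives were other size factors, DESeq2 1.42.0, limma-voom (limma 3.58.1), other filters and thresholds, length offsets, a replicate block and each library left out. The steps were tested on simulated data. Figures used matplotlib 3.10.9 under Python 3.11.15.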

Additional observations from a re-analysis of the deposited data

Results flagged for a closer look

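For each of the 10 genes the genipin difference in cells with NAC differed from that in cells without it, by edgeR's test of the interaction, which is what marks them here. On the log2 scale the difference was 4.36 for Mgarp, 3.68 for Ankrd37, 3.59 for Bnip3, 2.95 for Vegfa, 2.92 for Ak4, 2.51 for Ndrg1, 1.78 for Fam162a, 1.77 for Mxi1, 1.03 for Bnip3l and 0.91 for Higd1a. An interaction was called in either direction for 51.4% of all genes tested, so its presence alone does not set these genes apart.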

How the results depend on the processing

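Of the 1530 recomputed log2 fold changes of the 10 genes, 1510 kept their direction and their side of the threshold, and the rest concerned NAC against vehicle or NAC against genipin. For NAC against vehicle, Fam162a turned to 0.0825 without normalization factors, Bnip3l to 0.0203 with length offsets and Mxi1 to -0.0062 without the filter. With each library left out in turn Mxi1 ran from -0.0204 (without vehicle replicate 1) to 0.0268, and it was also below 0 without NAC replicate 2. Without normalization factors the median of all genes moved to 0.114 in that comparison and to -0.112 in the interaction. The share of calls that were higher then went from 49.7% to 67.5% for NAC against vehicle, from 50.2% to 35.9% for genipin+NAC against NAC and from 53.3% to 35.3% for the interaction. In the same setting Ndrg1 (0.15) and Mxi1 (0.13) were called higher with NAC, and Higd1a and Ak4 lost their calls. With a 2-fold threshold the genes called of the 10 were 6 for genipin, 0 for NAC and 6 for genipin+NAC against vehicle. They were 8 for genipin+NAC against genipin, 6 each for genipin+NAC against NAC and NAC against genipin, and 9 for the interaction. All genes called then numbered 1336, 1352 and 1083 against vehicle, 1995 for genipin+NAC against genipin, 805 for genipin+NAC against NAC, 2539 for NAC against genipin and 1345 for the interaction. The causes were not tested.

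Leaving out each library in turn, the number called of the 10 ran from 5 to 7 for NAC against vehicle and from 9 to 10 for NAC against genipin, and was 10 in the other 5 contrasts. With the replicate number as a block, the calls of the 10 genes numbered 10 for genipin, 6 for NAC and 10 for genipin+NAC against vehicle, as without it. In all, 8246 of 13636 genes were then called for genipin, 8050 for NAC and 7768 for genipin+NAC. Depth limits mainly Mgarp, with 33 to 37 counts in each genipin library.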
